A study of Homo sapiens with 4 samples.

Results

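The VPS13 genes encode a family of lipid transfer proteins with 4 members in human cells, VPS13A, VPS13B, VPS13C and VPS13D. The genes were chosen on their numbers of m7G peaks in these lists, with 9 peaks in VPS13D in 1 cell line and 0 in the other, so all numbers of peaks per gene are given as a description. A gene was given each listed peak that shared 1 bp or more, strand included, with an exon of any of its transcripts. By this rule 18 of the 16192 listed peaks lay in VPS13 genes, 6 of the 8070 peaks of HL60 cells and 12 of the 8122 peaks of HL60/MX2 cells. Each of the 18 peaks overlapped exons of 1 gene only, and the smallest of these overlaps was 4 bp. The lists held no other peak between the ends of these genes.

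The series holds 4 libraries, an input and an m7G-enriched (IP) library of each cell line, and the peak lists of the IP libraries were analysed. HL60 is a human promyelocytic leukemia cell line with the genotype label WT, and HL60/MX2 is its drug-resistant counterpart. Both are labelled as acute myeloid leukemia cells and were grown in the same medium, and no agent or time of treatment is given for either. Poly(A) RNA was decapped, fragmented and precipitated with an antibody against m7G, so a peak marks RNA fragments enriched after the cap had been removed. m7G is best known as the cap at the 5′ end of mRNA, and the same methylated base also occurs at sites inside mRNA. With 1 library per line there was no replicate and no test between the lines. The lists give a position, strand and score for each peak, without read counts or RNA levels. The depth is therefore unknown, RNA levels of the VPS13 genes were not compared, and the cell type could not be checked against its markers. In bulk RNA, fewer cells with a transcript and less of it per cell cannot be told apart.

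VPS13 proteins are long rods with a groove lined by hydrophobic residues, through which lipids can pass from one membrane to another where organelles touch. VPS13A works between the endoplasmic reticulum and mitochondria or lipid droplets and binds XK, and its loss causes chorea-acanthocytosis, with misshapen red blood cells. VPS13B works at the Golgi, and its loss causes Cohen syndrome, in which neutrophils are low. VPS13C links the endoplasmic reticulum to late endosomes and lysosomes and is mutated in a form of early Parkinson disease. VPS13D acts at mitochondria and peroxisomes and in the clearance of mitochondria.

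VPS13D carried 9 peaks in HL60/MX2 cells and 0 in HL60 cells. VPS13A showed the opposite order, with 5 peaks in HL60 against 1 in HL60/MX2. VPS13C carried 1 peak in each line, and VPS13B carried 1 peak in HL60/MX2 and 0 in HL60. These genes hold similar lengths of exon, 20766 bp in VPS13D, 20100 bp in VPS13A, 19703 bp in VPS13C and 20919 bp in VPS13B. VPS13D thus had 0.433 peaks per kb of exon in HL60/MX2, and VPS13A had 0.249 per kb in HL60, where all protein-coding genes had 0.0722 and 0.0708 peaks per kb in the same lists.

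The share of genes with any peak was taken over all 20162 protein-coding genes. A peak was listed for 27.0% of them in HL60 and for 29.5% in HL60/MX2. In both lines it was 12.3%, in HL60 alone 14.7% and in HL60/MX2 alone 17.2%. Genes with much exonic sequence had peaks more often. Among the 327 genes with at least the 19703 bp of exon of VPS13C, the shares were 57.2% for HL60, 61.8% for HL60/MX2 and 41.0% for both, with 16.2% for HL60 alone and 20.8% for HL60/MX2 alone. In the family, 2 of the 4 genes had a peak in HL60, all 4 in HL60/MX2, 2 in both and 2 in HL60/MX2 alone.

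**Figure D1:**
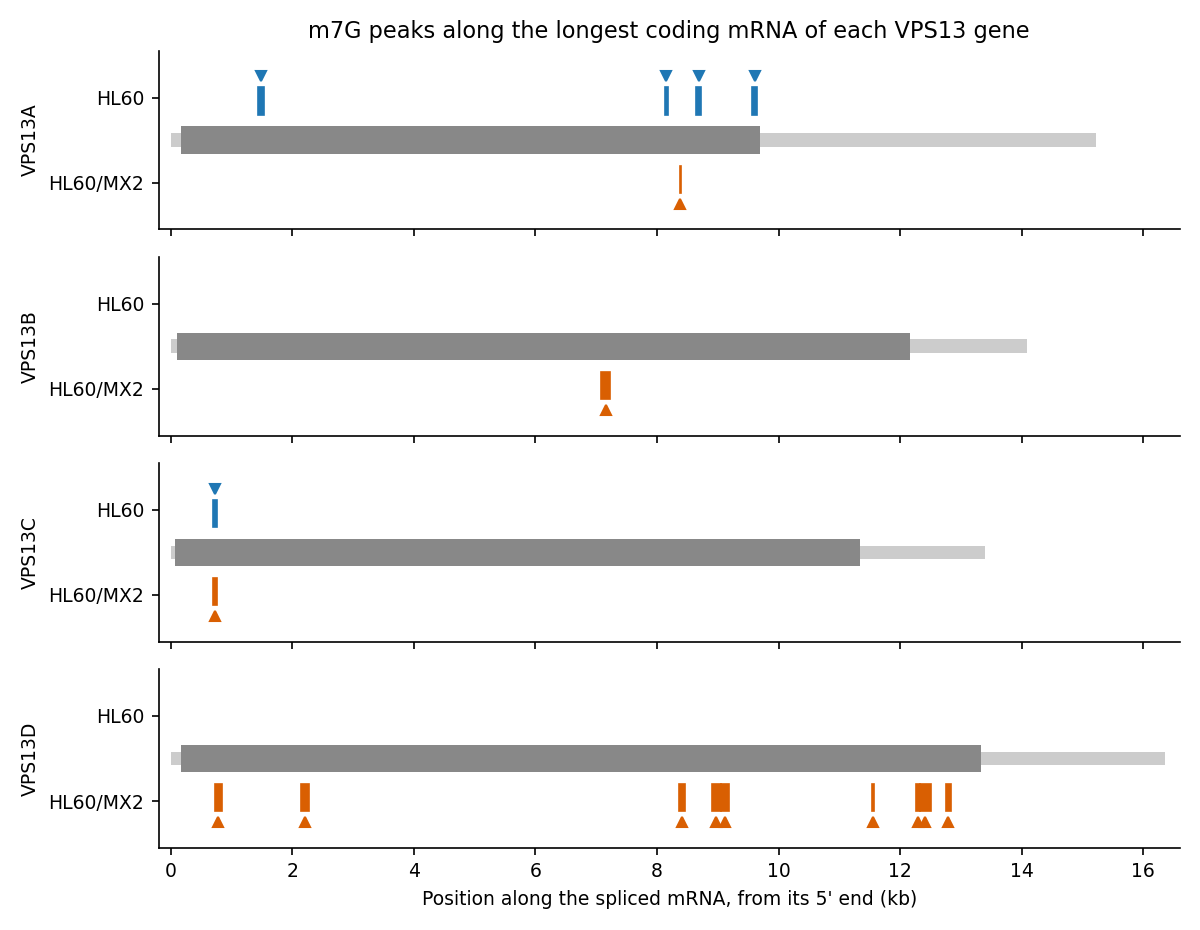
Position along the spliced mRNA of each VPS13 gene in kb (x axis), with the coding sequence as a dark bar, the untranslated regions as pale bars, and HL60 peaks above and HL60/MX2 peaks below as coloured boxes with a triangle each. The 9 VPS13D peaks are all below the bar and the VPS13C peaks face each other, while the 4 bp peak of VPS13A is widened by its outline and 1 HL60 peak of VPS13A outside this mRNA is not drawn.

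VPS13D (ENSG00000048707) lies on the plus strand of chr1:12290087-12572099 in hg19. Its longest coding transcript, ENST00000620676, has 70 exons, 16355 nt in all and 13164 nt of coding sequence. All 9 peaks lay in the coding sequence of this transcript and none of them within 100 nt of the start or stop codon. They fell in exons 7, 17, 37, 42, 43, 59, 64, 65 and 67. In 6 of them, in exons 7, 17, 37, 42, 43 and 65, the listed interval was exactly 1 whole exon. Of all HL60/MX2 peaks over protein-coding exons, 20.8% had the start and end of 1 exon. That share takes in exons of every region and length, and none was computed for coding exons alone. The other 3 VPS13D peaks shared 1 end with an exon, with 27.2% of exon 59, 55.6% of exon 64 and 40.8% of exon 67 covered.

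Exons 42 and 43, and likewise exons 64 and 65, follow each other directly, so in the spliced mRNA their peaks joined with 0 nt between them. They were separate peaks with consecutive running numbers in the list, 2322 bp and 1438 bp apart on the genome. The joined stretches ran from nt 8900 to 9188 and from nt 12258 to 12500 of the mRNA. By midpoint, 2 of the 9 peaks lay near the 5′ end, at 4.79% and 13.5% of the mRNA length, and 7 lay between 51.4% and 78.2%. Between exon 17 and exon 37, 6094 nt of mRNA held no listed peak.

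The joined pairs of VPS13D peaks are printed because they are the longest runs of listed m7G signal in the family's mRNAs. The peaks of VPS13D exons 42, 43, 64 and 65 are at chr1:12402956-12403108, chr1:12405431-12405566, chr1:12475200-12475274 and chr1:12476713-12476880. The VPS13C peak is shown because it is the only one listed in both lines, at chr15:62312678-62312737. All are on the strand of the gene, 5′ to 3′, from the hg19 reference. Capitals mark matches to 2 motifs named in the study, CUGKR (CTGGA or CTGGG or CTGTA or CTGTG in DNA letters) and GGAAR (GGAAA or GGAAG).
VPS13D exon 42, HL60/MX2: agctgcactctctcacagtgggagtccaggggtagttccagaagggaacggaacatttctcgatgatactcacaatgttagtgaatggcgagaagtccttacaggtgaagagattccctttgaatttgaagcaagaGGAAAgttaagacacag
VPS13D exon 43, HL60/MX2: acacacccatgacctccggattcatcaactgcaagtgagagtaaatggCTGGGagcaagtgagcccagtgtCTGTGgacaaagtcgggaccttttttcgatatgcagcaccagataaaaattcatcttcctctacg
VPS13D exon 64, HL60/MX2: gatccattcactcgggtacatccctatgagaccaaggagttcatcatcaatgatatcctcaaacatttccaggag
VPS13D exon 65, HL60/MX2: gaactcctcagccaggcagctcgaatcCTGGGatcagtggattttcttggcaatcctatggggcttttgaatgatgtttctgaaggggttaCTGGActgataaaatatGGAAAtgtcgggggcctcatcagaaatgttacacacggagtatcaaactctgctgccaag
VPS13C exon 9, HL60 and HL60/MX2: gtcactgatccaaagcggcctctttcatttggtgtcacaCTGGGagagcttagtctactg

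The score of a peak is the value deposited for it, on a scale that is not stated, so each score was ranked in its own list only. In HL60/MX2 the scores ran from 50.03 to 3100 with a median of 260. The highest score of VPS13D was 640.2 in exon 43, above or equal to 85.2% of the list. The adjoining exon 42 had the lowest, 75.07, at 9.43% of the list. Direct neighbours in the mRNA thus had the highest and the lowest score of the gene.

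Exons 7 and 17 of VPS13D, nearest to the 5′ end, had scores of 342.76 and 338.36, at 60.8% and 60.6% of the list. Exon 37 had a score of 208.55, exon 64 of 181 and exon 65 of 108.51. The scores were 95.94 in exon 59 and 91.97 in exon 67. Of the 9 peaks, 3 were at or above the median score of the list, all of them whole exons.

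VPS13A (ENSG00000197969) lies on the plus strand of chr9:79792361-80036453. Its longest coding transcript, ENST00000360280, has 72 exons and 15227 nt, of which 9522 nt are coding and 5534 nt are 3′UTR. The HL60 peaks lay in exons 15, 57, 62 and 71 of this transcript and in 1 exon outside it. Exon 62 was covered as a whole by an 82 bp peak, at chr9:79982971-79983052. Of all HL60 peaks over protein-coding exons of every region and length, 23.5% had the start and end of 1 exon. The exon 62 peak had the highest score of any VPS13 peak in HL60, 829.56, above or equal to 97.1% of the list, whose median was 197.

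The other HL60 peaks of VPS13A had scores of 318.52 in exon 57, 258.78 in exon 71 and 93.5 in exon 15. The peak of exon 71, the exon before the last, lay for the most part within 100 nt of the stop codon. It ended at codon 3156 of 3174, so it too was coding sequence, as were those of exons 15, 57 and 62. The remaining peak, of 211 bp with a score of 141.21, was at chr9:79953425-79953635. It lay in an intron of the longest coding transcript and in the last exon of a short one, ENST00000419472, outside the coding sequence of that transcript. It was the only VPS13 peak with neither end at the end of an exon. No VPS13A peak of either line fell in the 3′UTR of the longest coding transcript, which makes up 36.3% of that mRNA.

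In HL60/MX2, VPS13A had 1 peak of 4 bp, the shortest of the family, at chr9:79980376-79980379. It covered the first bases of exon 60, 3.51% of that exon, with a score of 417.39 at 68.9% of the list. It overlapped no HL60 peak. The nearest HL60 peak, in exon 62, began 2591 bp away on the genome, and the peak of exon 57 lay 7042 bp away on the other side. Between nt 8125 and nt 8724 of the mRNA, each line thus had listed peaks in different exons, exons 57 and 62 in HL60 and exon 60 in HL60/MX2.

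The peaks of this stretch are shown because it is where the lines came nearest to each other in VPS13A without an overlap. The HL60 peak of exon 57 is at chr9:79973273-79973333, and the first 30 nt of exon 60 are at chr9:79980376-79980405, on the plus strand of hg19. In exon 57 capitals mark a CUGKR match as above, and exon 62 holds neither motif. In exon 60 capitals mark the bases inside the HL60/MX2 peak.
VPS13A exon 57, HL60: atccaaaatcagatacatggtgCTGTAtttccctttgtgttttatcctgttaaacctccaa
VPS13A exon 60, HL60/MX2: GTTGagctttttcataaagatatagaagct
VPS13A exon 62, HL60: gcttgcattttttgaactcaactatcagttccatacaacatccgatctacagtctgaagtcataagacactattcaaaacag

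VPS13C (ENSG00000129003) lies on the minus strand of chr15:62144588-62352672. Its longest coding transcript, ENST00000644861, has 85 exons and 13403 nt. The peak of each line was the whole of exon 9, 60 bp with the same start and end, which encodes codons 209 to 228 of 3753. Its score was 251.61 in HL60, at 61.7% of that list, and 256.95 in HL60/MX2, at 49.5% of that list. The exon printed above was thus the only VPS13 sequence listed in both lines. In the family 1 of 6 HL60 peaks and 1 of 12 HL60/MX2 peaks overlapped a peak of the other line, where the whole lists had 6.13% and 6.09%.

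VPS13B (ENSG00000132549) lies on the plus strand of chr8:100025494-100889808, over 864.315 kb, the longest gene of the family on the genome. Its 1 peak, in HL60/MX2, covered 82.2% of exon 39 of the 62 exons of ENST00000358544, to the end of that exon. The peak was 152 bp long, at chr8:100733124-100733275, with a score of 152.46 at 30.5% of the list. It encodes codons 2325 to 2375 of 4022, in the middle of the mRNA.

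**Figure D2:**
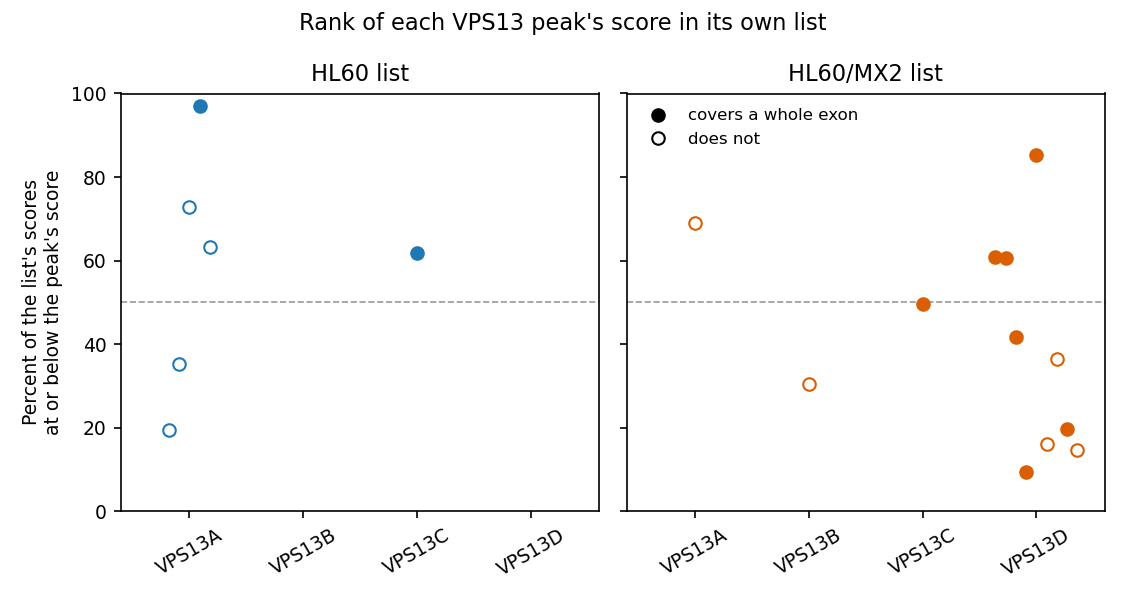
Rank of the score of each VPS13 peak in its own list. The y axis is the percent of the scores of that list at or below the peak's score, each point is 1 peak, filled points cover a whole exon, and the dashed line is the median of the list. The VPS13A peaks of HL60 spread from 19.4% to 97.1% and the VPS13D peaks of HL60/MX2 from 9.43% to 85.2%.

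Over the family, 16 of the 18 peaks lay in the coding sequence outside the codon classes and 1 outside the longest coding transcript. The remaining 1 was in the stop codon class, in coding sequence before the stop codon itself. Not one lay in a 5′UTR, a start codon class or a 3′UTR of these transcripts. The coding sequence made up from 62.5% of the mRNA in VPS13A to 85.7% in VPS13B. The 5′UTR made up from 0.552% in VPS13C to 1.13% in VPS13A. In the paper, the coding sequence held the most m7G methylation in both lines. Shares of all listed peaks by region were not computed here. A whole exon was listed in 2 of 6 peaks in HL60 and in 7 of 12 in HL60/MX2. At least 1 end lay at an exon end in 17 of the 18. The share of all listed peaks with such an end was not computed. The median length was 74.5 bp in HL60 and 97.5 bp in HL60/MX2, where the lists had medians of 129 bp and 133 bp.

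The exons with a peak were ranked by GC content within their transcript. In VPS13A, the 4 exons with an HL60 peak were all in the upper 50% of the 72 exons by GC content, with 36.6% to 42.7% GC. The exon with the HL60/MX2 peak, exon 60, ranked 70 of 72 with 30.7%. In VPS13D, 3 of the 9 exons were in the upper 50%, and the values ran from 41.9% in exon 7 to 54.1% in exon 67 around a median of 45.8% over all 70 exons. The VPS13C exon ranked 3 of 85, with GC at 50%, and the VPS13B exon ranked 37 of 62, with 41.1%. Over the family, 9 of 17 were in the upper 50%, with the VPS13C exon taken once for each line.

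The motif CUGKR was found in 10 of the 18 peaks on the strand of the gene and in 9 on the opposite strand, and GGAAR in 6 and 3. These counts take the VPS13C exon once for each line, and the 4 bp peak of VPS13A is too short to hold either motif. A CUGKR match that ends in GGA can overlap a GGAAR match, and both were then counted. In VPS13D, CUGKR was found in 5 of 9 peaks and GGAAR in 4 of 9. Of all windows of the same lengths along the VPS13D mRNA, a mean of 52.2% held CUGKR and 40.4% held GGAAR. In the HL60 peaks of VPS13A each motif was found in 2 of 5 peaks, where means of 31.1% and 26.0% of such windows along its mRNA held them. The peak of 211 bp, 1 of these 5, lies outside that mRNA. It held GGAAR and no CUGKR, and 47.9% and 56.1% of windows of its length held these motifs. The VPS13C peak held CUGKR and no GGAAR, where 26.9% and 21.1% of its windows held them. The VPS13B peak held CUGKR and no GGAAR, where 71.6% and 38.8% of windows did. The paper derived both motifs with DREME from the sequences of its m7G peaks. It reports that the motifs differed between the cell lines, while here both were searched in the peaks of each line. No share of windows was computed for the opposite strand or for the 18 peaks together. A match says only that these letters are in the window.

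The encoded proteins were aligned to see whether peaks fell at matching places in different genes. VPS13A and VPS13C were the most alike, with 45.9% of 3087 aligned residues identical, while other pairs had from 19.8% (VPS13A and VPS13B) to 25.4% (VPS13C and VPS13D). The VPS13A codons 166 to 185 that align with VPS13C exon 9 carried no listed peak, nor did VPS13D codons 163 to 182. The VPS13D peak of exon 7 followed at codons 189 to 223.

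Peaks of different genes met at a few aligned places. The HL60 peak of VPS13A exon 62, codons 2824 to 2851, was aligned with the HL60/MX2 peak of VPS13D exon 64 over 25 codons and with 1 codon of exon 65. Of the 28 residues of VPS13A exon 62, 4 were identical in VPS13D, where 24.0% were identical over the whole alignment of these proteins. The HL60/MX2 peak of VPS13B exon 39 was aligned in part with that of VPS13D exon 37, over 17 codons of VPS13D. How often peaks placed elsewhere in these genes would meet was not computed.

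Among the 327 genes with at least as much exon as VPS13C, the median was 1 peak per gene in each list, and the means were 1.39 in HL60 and 1.32 in HL60/MX2. VPS13D was 1 of 4 genes among all 20162 with 9 or more peaks in HL60/MX2, and the only one of these with 0 in HL60. Its difference of 9 peaks was the largest of any gene in that direction. VPS13A was 1 of 77 genes with 5 or more peaks in HL60, and 79 genes had a difference of -4 or lower from HL60 to HL60/MX2. These values chose the genes and are no test of them.

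**Figure D3:**
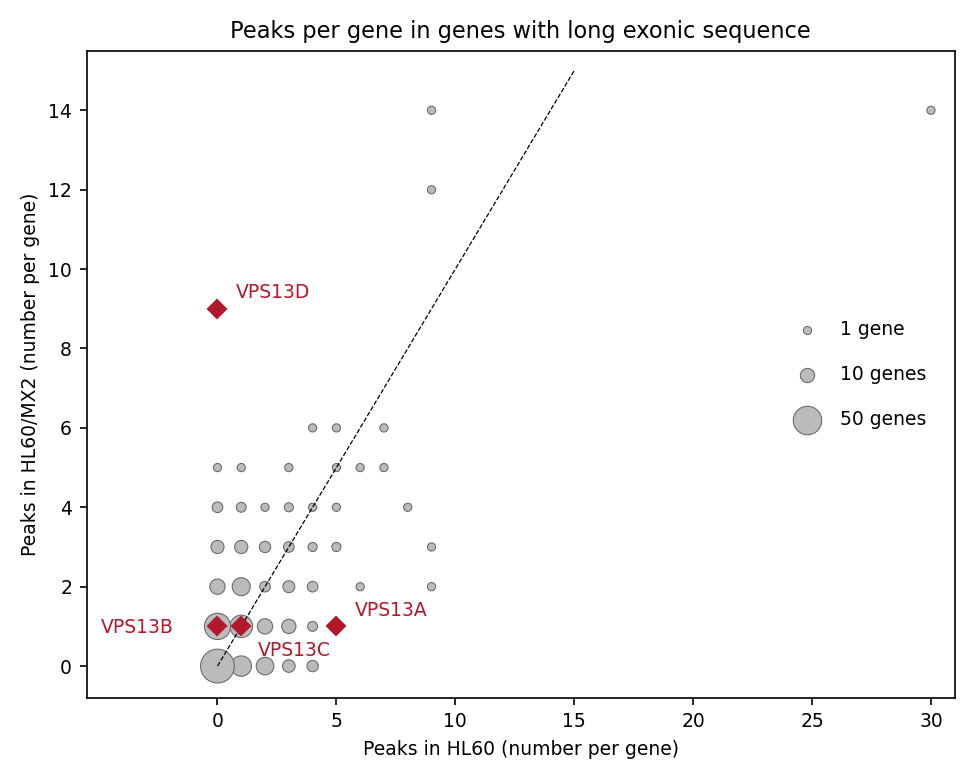
Peaks per gene in the 327 genes with at least the exon length of VPS13C. The x axis is the number of peaks in HL60 and the y axis the number in HL60/MX2, the size of a grey circle is the number of genes at that point, the red diamonds are the VPS13 genes and the dashed line marks equal numbers. VPS13D stands at 0 and 9, apart from the others, while VPS13B and VPS13C lie where many genes lie.

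The genes whose pair of numbers was nearest to that of VPS13D, by the straight distance between the pairs, were SPAG9 and CFAP70 with 1 peak in HL60 and 6 in HL60/MX2 each. DOCK9 with 3 and 7, UNC13A with 2 and 6, and RNF213 with 0 and 5 followed. Their distances ran from 3.16 to 4.00 peaks, and each had fewer HL60/MX2 peaks than VPS13D.

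Peaks are named with running numbers in genome order. What the numbers absent from the lists stand for is not stated, and they are given as they are. In HL60, the listed peaks on either side of VPS13D lay in CLCN6, 389 kb before the gene, and AADACL4, 139 kb after it. Between them 209 numbers passed without a listed peak over 810 kb, or 259 per Mb, where chromosome 1 as a whole had 314 per Mb.

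In HL60/MX2 the neighbours were MIIP and AADACL3, and 221 numbers lay between them over 700 kb, 317 per Mb against 264 over the chromosome. From the first to the last peak of VPS13D, over 207 kb, there were 65 numbers, and 9 of these were listed. In VPS13A, 5 of 67 numbers over 181 kb were listed in HL60. Both stretches begin and end at listed peaks of genes chosen on their peaks. The share of listed numbers over the whole lists was not computed. Around VPS13B, 319 numbers passed in HL60 with 0 listed in 934 kb, at 343 per Mb against 350 over its chromosome. With no listed HL60 peak inside VPS13D or VPS13B, how many of these numbers fall within the genes is not known.

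**Figure D4:**
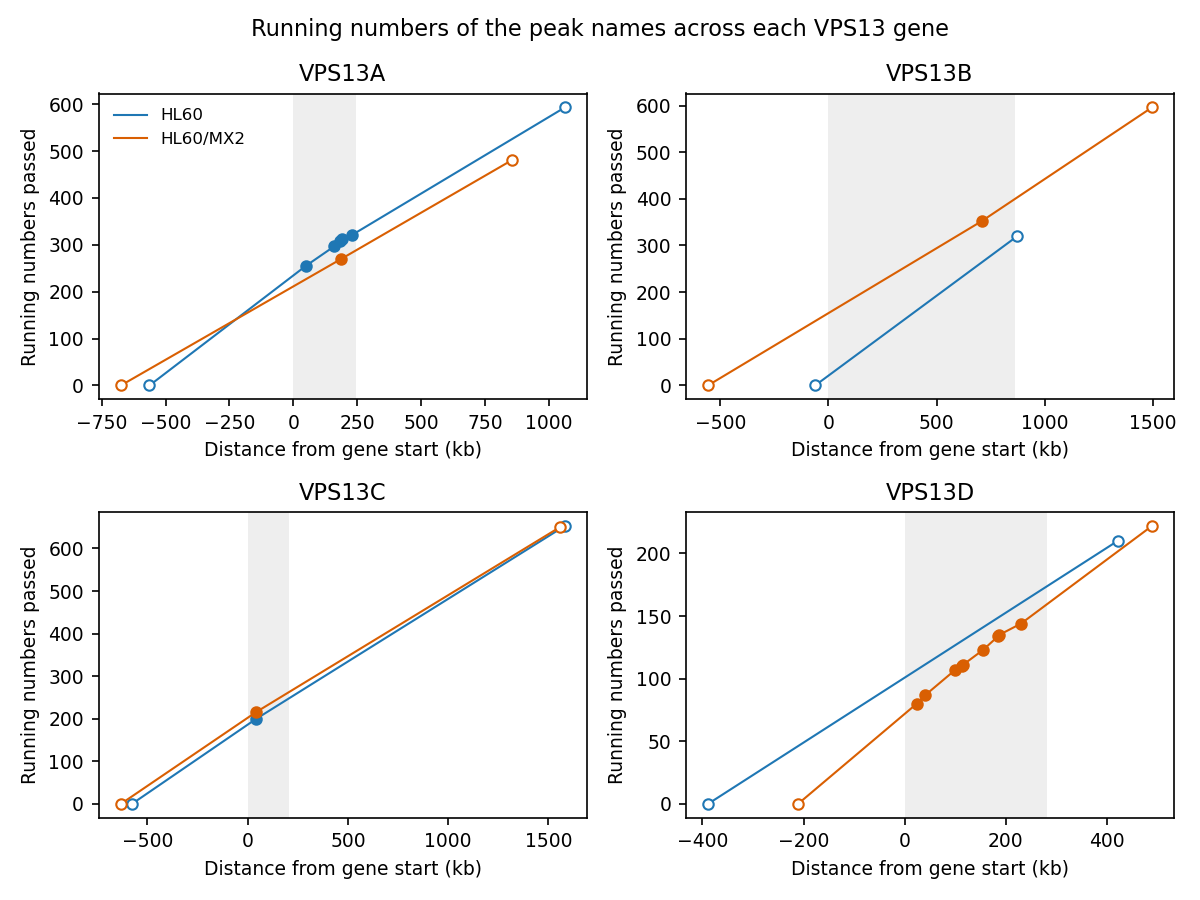
Running numbers of the peak names across each VPS13 gene. The x axis is the distance from the start of the gene in kb, the shaded band is the gene, the y axis is how many numbers have passed since the first peak drawn, filled points are peaks of the gene and open points are the nearest listed peaks on either side. In the VPS13D panel the HL60 line rises by 210 between the listed peaks on either side of the gene with no filled point on it, while the HL60/MX2 line carries 9.

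A list of 17 genes tied to the same work was set beside the family. Other bridge-like lipid transfer proteins are ATG2A and ATG2B, which feed lipids to the growing autophagosome, and BLTP1, BLTP2, BLTP3A and BLTP3B. Of these 6 genes, 3 held 5 peaks in HL60 and 5 held 10 peaks in HL60/MX2. ATG2B had 3 HL60 peaks and 2 HL60/MX2 peaks, none overlapping. BLTP1, with 45272 bp of exon the longest of the list, had 0 and 3 peaks, and BLTP2 had 0 and 1. BLTP3A had 1 and 1, in different exons.

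BLTP3B had 1 peak in HL60 against 3 in HL60/MX2. The HL60 peak overlapped 1 of these, at chr12:100422328-100422388 and chr12:100422314-100422388, in an exon outside the longest coding transcript. Of the 8 receptors and partners that hold VPS13 proteins at membranes or work with them, VAPB, an anchor in the endoplasmic reticulum, had 1 peak in each line. XK, the partner of VPS13A, had 0 in HL60 and 1 in the 3′UTR in HL60/MX2, with a score of 306.13. RAB6A, a Golgi GTPase, had 0 and 2, with scores of 465.94 in exon 7 and 400.74 in exon 5, both above the list median. Over all 17 related genes, the HL60/MX2 scores ran from 78.37 in ATG9A to 465.94, and most were below that median of 260. The mitochondrial GTPases RHOT1 and RHOT2, VAPA, RAB7A and STX6 had 0 in both, as did ATG2A among the bridge-like genes.

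The 3 scramblases, which move lipids between the leaflets of a membrane, all had a peak in HL60/MX2. ATG9A and TMEM41B had 0 and 1, and VMP1 had 2 and 1. Of the 17 genes, 5 were listed in HL60 (29.4%) against 11 in HL60/MX2 (64.7%), and 6 of the latter had no HL60 peak, while each gene listed in HL60 was listed in both. Over all protein-coding genes the shares were 27.0% for HL60, 29.5% for HL60/MX2 and 17.2% for HL60/MX2 alone. They were 12.3% for both lines and 14.7% for HL60 alone. The HL60 share of the list was thus near that of all genes. The median exon length of the list was 7194 bp, against 4388 bp over all genes, and shares for genes of the same length were not computed. Their HL60 peaks numbered 8 and their HL60/MX2 peaks 17, of which 1 in each list overlapped the other.

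**Figure D5:**
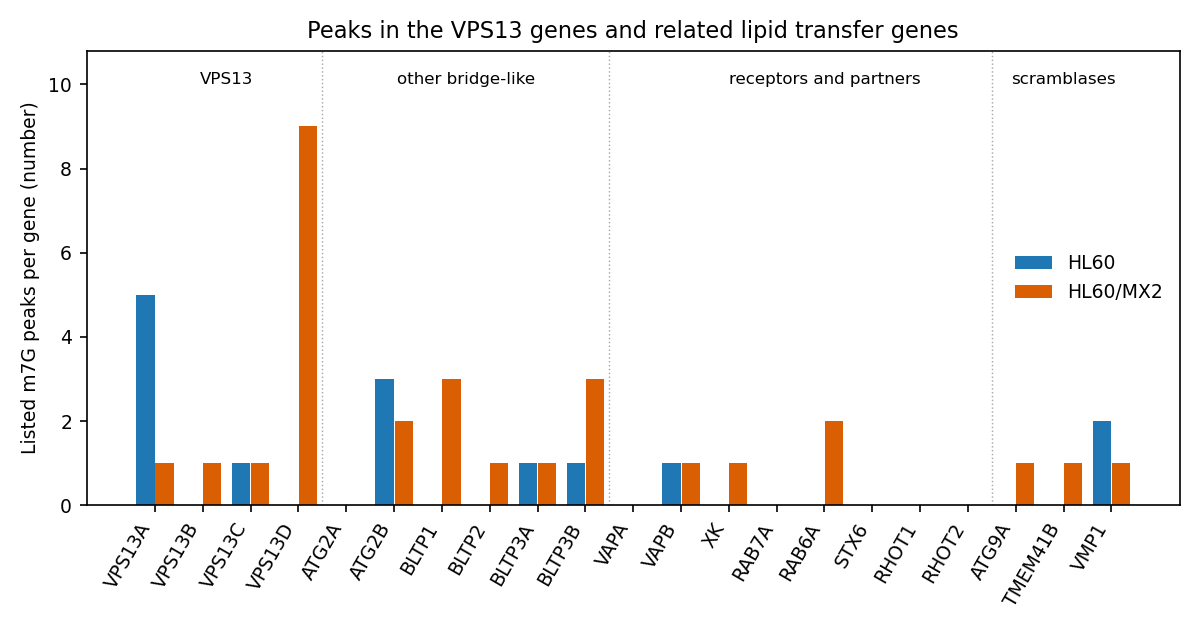
Listed m7G peaks per gene in the VPS13 genes, other bridge-like lipid transfer genes, receptors and partners, and scramblases. The y axis is the number of peaks, with blue bars for HL60 and orange bars for HL60/MX2. The 9 HL60/MX2 peaks of VPS13D are the highest bar, and no other gene has more than 5 in either line.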

How the data were processed

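The authors trimmed the reads with cutadapt 1.9.3 and aligned them to hg19 with HISAT2 2.0.4 (versions also in the submitters' processing notes). They called peaks with MACS, compared the lines with diffReps and kept regions over protein-coding exons. The version and settings of MACS are not given in the sources used here. The authors deposited 1 score for each peak, on a scale that is not stated, and no read counts, so read depth could not be judged. The input libraries were not analysed here.

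Positions were turned to starts counted from 1 and set beside GENCODE release 44 placed on hg19 (20162 protein-coding genes). Exons were numbered on the transcript with the longest coding sequence, and stretches of 100 nt on both sides of the start codon and the stop codon formed classes of their own. Proteins were translated from the reference and aligned with MAFFT 7.526. Both strands were searched for the motifs, and matches on the strand of the gene were compared with every window of the same length along the mRNA. The genes and lists were chosen with earlier results of these data known. Other genes named were those of the list of related genes with a peak, those nearest to VPS13D in numbers of peaks, and the neighbours of VPS13D. Genes of the list without a peak were named as well. Alternatives were tried for the score, peak length, overlap, exons, strand, gene and region. The steps, in Python 3.11.15 with matplotlib 3.10.9 and Biopython 1.88, were tested on simulated data.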

Additional observations from a re-analysis of the deposited data

How the results depend on the processing

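With only the peaks at or above the median score of their list, 4 VPS13 peaks were left of 12 in HL60/MX2 and 4 of 6 in HL60, so the family had the same number in each line. VPS13D then had 3 peaks in HL60/MX2, VPS13A had 3 in HL60, VPS13B and VPS13C had 0 in HL60/MX2, and 0 peaks were shared. With peaks of at least 50 bp, VPS13A had 0 peaks in HL60/MX2. The other 53 of 60 values stayed within 1.5 times the reported ones. Among them were all those with 50% overlap of both peaks, 100 bp allowed between peaks, or the region at the midpoint. The same held with exons of either strand or the gene of the largest overlap, but these settings could not change a number. Each VPS13 peak overlapped 1 gene only, and no other peak was listed between the ends of these genes. The median rank of the scores was 62.5% for HL60 and 39.0% for HL60/MX2 in the whole lists, against 62.5% and 39.3% among peaks over protein-coding exons alone. VPS13D had 0 peaks in HL60 under the settings of score, length, longest coding transcript, strand and largest overlap. No listed HL60 peak lay within the gene, so this 0 could not change. In HL60/MX2 the same settings left VPS13D with 3 to 9 peaks. No paired analysis was possible because each line had 1 IP library. Without replicates or counts, a peak missing from a list could not be told from one below the threshold of the caller.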
